A study of Mus musculus with 12 samples.

Results

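The comparison set the loss of both Sox8 and Sox9 against the loss of Sox9 alone in mouse knee cartilage at day 14, and it used 8 of the 12 bulk RNA sequencing libraries of the series. Articular cartilage and growth plate had been taken by laser capture from frozen knee sections of adult mice aged 3 months. Each tissue gave 4 libraries, 1 per genotype and Cre state, so the day 14 comparison has no replicates. The Sox8 Sox9 mutant carried floxed alleles of both genes (Sox8fl/flSox9fl/fl) and AcanCreER, an inducible Cre driven from the aggrecan gene Acan. Its control carried the same floxed alleles without Cre. The Sox9 mutant carried Sox9fl/fl and AcanCreER, and its control carried Sox9fl/fl without Cre. All controls thus had floxed alleles, and all mutants had the Cre. The column headers also name a reporter allele, R26tdT/+, for the Sox9 libraries and not for the Sox8 Sox9 libraries. The sources used here do not give the event from which days were counted, the animals per library or the floxed exons. A set of 4 Sox9 libraries from day 7 was used beside the comparison to show how far the Sox9 effect itself varied.

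Sox9 and Sox8 are related transcription factors of the SoxE group, which bind DNA through an HMG box. Sox9 is required for cartilage formation and activates genes of the cartilage matrix together with Sox5 and Sox6. In the growth plate it acts in the columns of proliferating and prehypertrophic chondrocytes that lengthen bone, whereas articular cartilage forms the lasting joint surface. The comparison asks whether removing Sox8 as well adds to the effect of removing Sox9, but Sox9 itself also differed between the growth plate mutants.

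Values were the authors' normalised RPKM, a level per transcript length, with 14712 listed genes and a lowest listed value of 1. An effect here is log2(value + 1) in the mutant minus that in its control. The difference of effects is the Sox8 Sox9 effect minus the Sox9 effect in the same tissue, so a negative value means that a gene was lower, relative to its own control, in the Sox8 Sox9 mutant than in the Sox9 mutant. Adding 1 shrinks the differences of low genes. Genes were counted as past the limit at a difference of effects of at least 2 either way, which is 4-fold, among the 7674 genes with a mean value of at least 5. With 1 library per group these counts describe the libraries and have no test. In bulk tissue, fewer cells of a type and less RNA per cell cannot be told apart.

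Several features of the libraries touch every result. Xist, the RNA of the inactive X chromosome, had 67.1 and 68.2 in the labelled articular Sox8 Sox9 mutant and control and 61.2 and 76.5 in the growth plate pair, and was at 1 in all Sox9 libraries. Ddx3y, a Y-linked gene, was at 1 in all Sox8 Sox9 libraries and between 11.8 and 22.04 in the day 14 Sox9 libraries. Genotype, sex-linked expression and the reporter therefore cannot be told apart, although each mutant and its control share them. The matrix genes Matn3 and Epyc were at 1 in all day 14 articular libraries, and the lubricin gene Prg4 had 32446 and 24884 in the articular controls, against 11.95 and 36.4 in the growth plate controls. Col10a1, a marker of hypertrophic cells, was also present in the articular controls, at 1284 and 3045. Between 1495 and 2398 genes per library were listed at 1, and read depth is unknown. In the articular Sox9 mutant library every listed gene from Mov10 (chromosome 3, start 104794836, mm10) to Wls, the end of the listed chromosome, was at 1. This run took in 219 consecutive rows, and the gene before it, Rhoc, had 39.5. Among the other runs at 1 that were compared with it, the longest held 9 genes, and longer runs of low genes may have been missed.

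**Figure D1:**
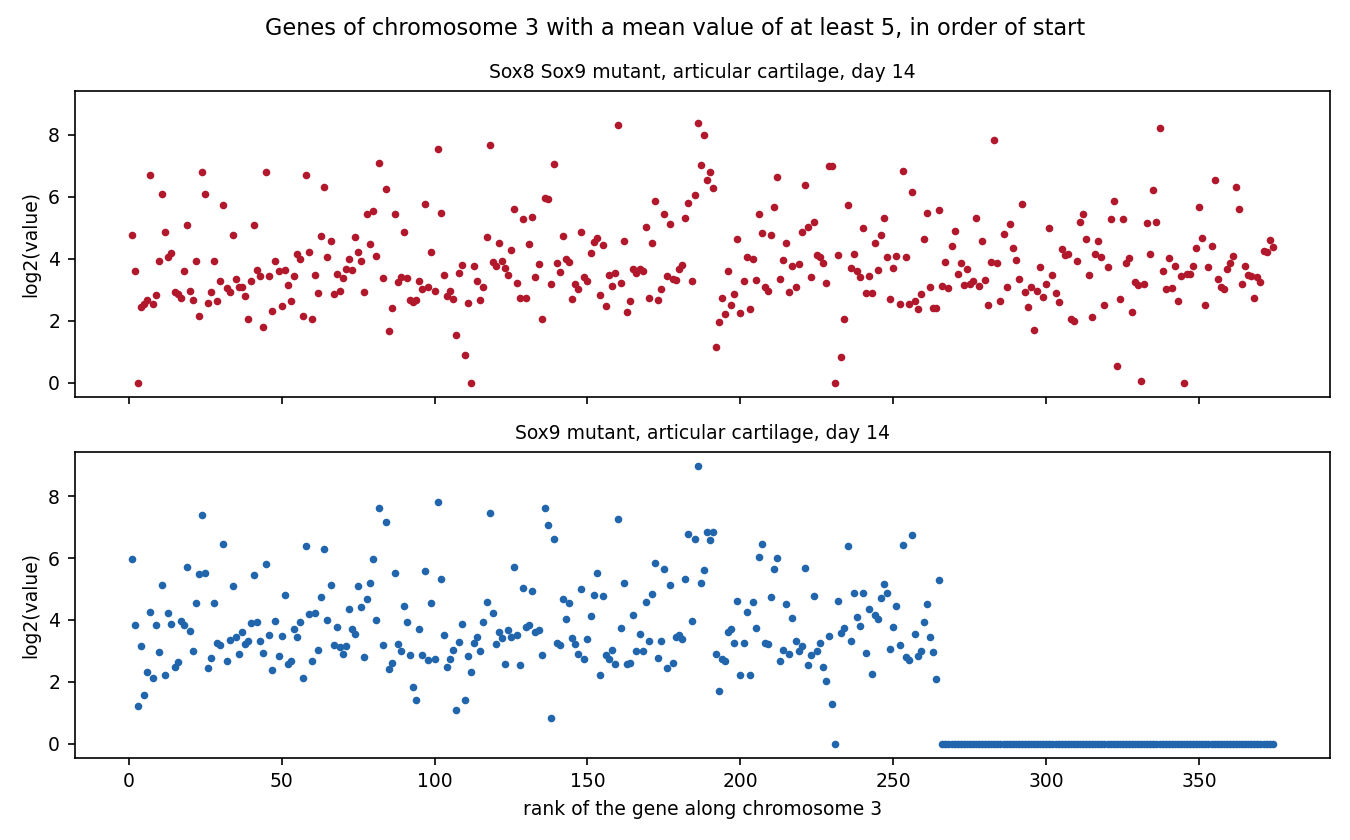
Level of each chromosome 3 gene (log2 of the value, genes with a mean value of at least 5) against its rank along the chromosome, in articular cartilage of the labelled Sox8 Sox9 mutant (top) and the articular Sox9 mutant library (bottom) at day 14. In the Sox9 mutant library all genes in the last part of the chromosome lie at log2(1), which is 0, and in the Sox8 Sox9 library they do not.

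Within growth plate Sox9 and Sox8 were lowest in the Sox8 Sox9 mutant, and in articular cartilage Sox9 went against one label. In growth plate, Sox9 (chromosome 11, 112782224 to 112787760) had 35.97 in the Sox8 Sox9 mutant and 308 in its control, against 148 in the Sox9 mutant and 335 in its control. The Sox8 Sox9 mutant stood below all other day 14 libraries, and the difference of effects was −1.90. In articular cartilage Sox9 had 282 in the library labelled Sox8 Sox9 mutant and 213 in its control, against 309 in the Sox9 mutant and 349 in its control. It was thus higher, not lower, in the library labelled mutant, and articular directions below are given for that library as labelled. In the articular Sox9 pair the Sox9 effect was only −0.17. Sox8 (chromosome 17, 25565892 to 25570686) had 1.89 in the Sox8 Sox9 mutant and 28.8 in its control, against 4.93 in the Sox9 mutant and 21.7 in its control in growth plate. Both growth plate mutants were low, and the difference of effects was −1.43. Since Sox9 was also lower in the Sox8 Sox9 mutant, less Sox9 and the loss of Sox8 cannot be told apart in growth plate. In articular cartilage Sox8 had 8.66 in the library labelled Sox8 Sox9 mutant and 15.3 in its control, against 1.63 in the Sox9 mutant and 17.8 in its control, so it was lowest in the mutant whose Sox8 alleles were not floxed, and the difference of effects was 2.08. A value covers the whole gene, and transcripts left after recombination also count. Acan, the gene that carries the Cre and so not an independent readout, had 27.8 in the Sox8 Sox9 mutant and 1796 in its control, against 288 in the Sox9 mutant and 1694 in its control in growth plate, and 347 in the library labelled Sox8 Sox9 mutant and 1038 in its control, against 316 in the Sox9 mutant and 2225 in its control in articular cartilage.

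**Figure D2:**
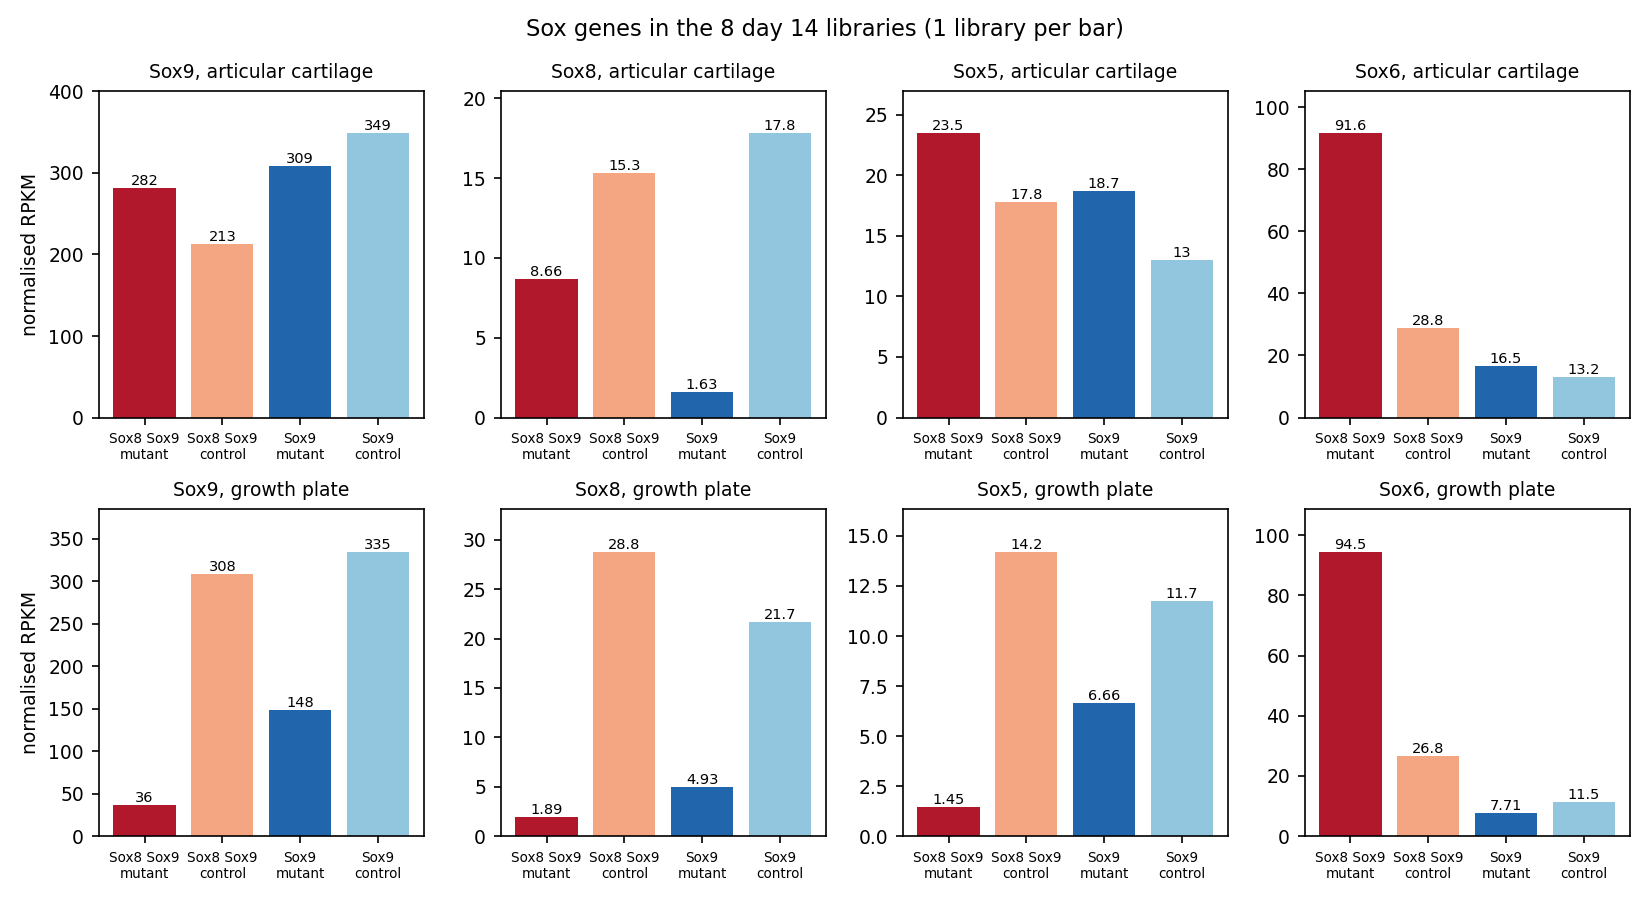
Normalised RPKM of Sox9, Sox8, Sox5 and Sox6 in the 8 day 14 libraries, articular cartilage above and growth plate below, 1 library per bar and no error bars because there are no replicates. In growth plate the Sox8 Sox9 mutant has the lowest Sox9, Sox8 and Sox5 bars and the highest Sox6 bar; in articular cartilage the Sox9 bar of the library labelled Sox8 Sox9 mutant is above that of its control.

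In growth plate more genes were lower than higher in the Sox8 Sox9 pair relative to the Sox9 pair, and genes of the cartilage matrix and of skeletal muscle led them. Against its own control, the Sox8 Sox9 mutant had 211 genes lower by at least 2 on the log2 scale (2.75%) and 141 higher (1.84%), and the Sox9 mutant 89 lower (1.16%) and 146 higher (1.9%). Past the limit, 200 genes were lower and 49 higher, which is 2.61% and 0.639% of the genes counted. The median difference of effects over the genes counted was 0.30. After median ratio scaling 270.0 genes were lower and 27 higher. Of the 200 lower genes, 40 were below their control by at least 1 on the log2 scale in both mutants, 44 in the Sox8 Sox9 mutant with a Sox9 effect within 1 of 0, and 40 in the Sox8 Sox9 mutant with a Sox9 effect of at least 1 above 0. In the other 76 the Sox9 effect was at least 1 above 0 and the Sox8 Sox9 effect was not below −1. For 35 of the 200 the controls were further apart than the mutants. Against the Sox9 day 7 pair in place of day 14, 188 genes were lower (2.45%) and 37 higher (0.482%), and 94 of the 200 genes were among the 188. The Sox9 effect itself differed by at least 2 between days 14 and 7 in 119 genes upwards (1.55%) and 97 downwards (1.26%).

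**Figure D3:**
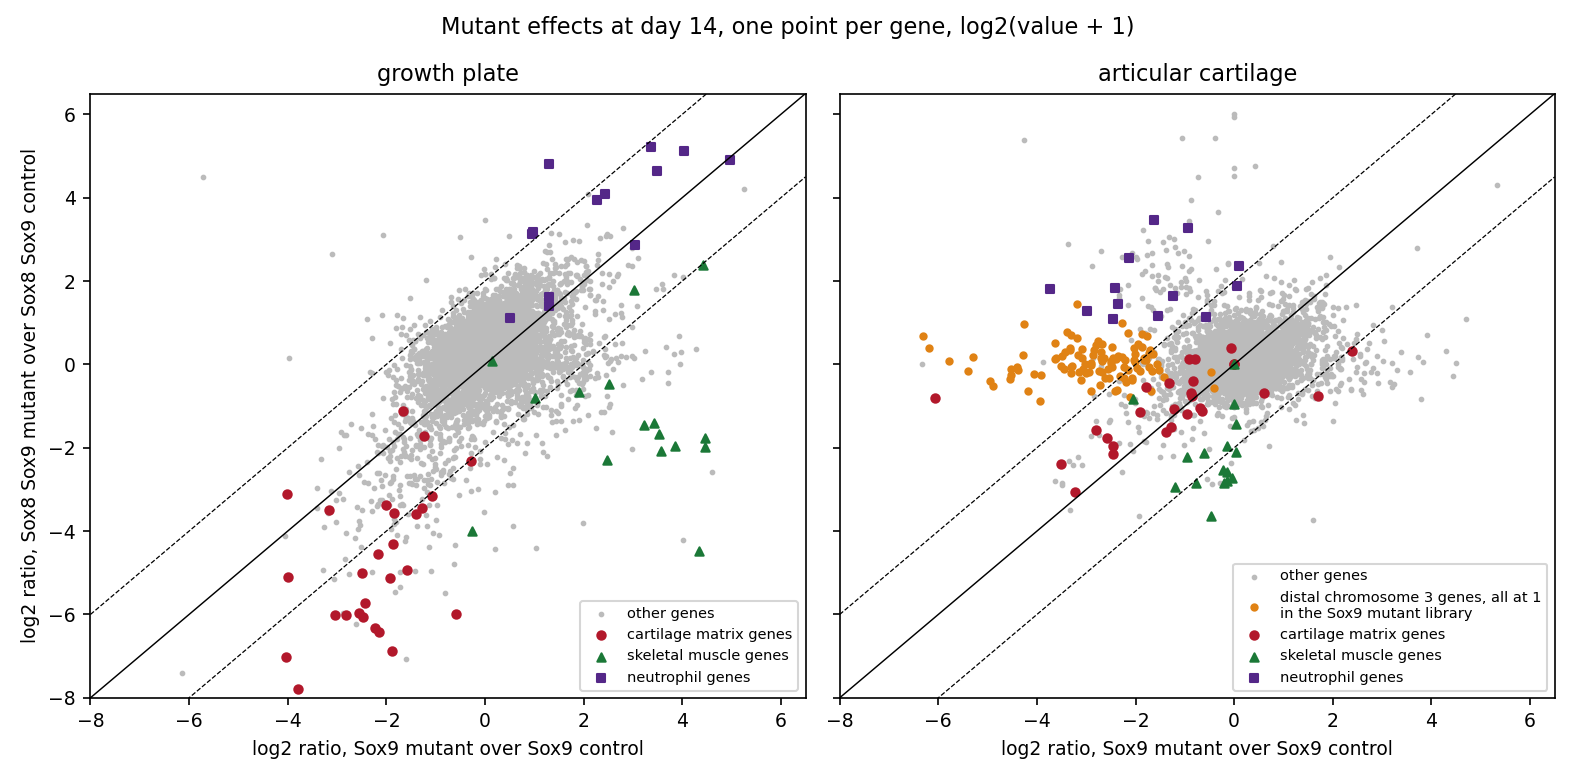
Effect in the Sox8 Sox9 pair (vertical) against the effect in the Sox9 pair (horizontal) at day 14, in log2 units, 1 point per gene with a mean value of at least 5 or on a gene list. The solid line marks equal effects and the dashed lines a difference of 2. In growth plate (left) most cartilage matrix genes lie below the lower dashed line at negative effects in both pairs, and skeletal muscle genes lie below it at positive Sox9 effects; in articular cartilage (right) the matrix genes lie near the solid line.

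Of 27 listed cartilage matrix genes, 25 had a negative difference of effects in growth plate, and 19 of the 26 with a mean of at least 5 were lower past the limit and 0 higher. Acan is 1 of these genes. Over all genes counted, 2.61% were lower past the limit and 0.639% higher. The list's median effect was −5.01 in the Sox8 Sox9 pair and −2.15 in the Sox9 pair, and its median difference of effects was −2.53, against 0.30 over all counted genes. In 26 of the 27 genes, all but Col11a1, the Sox8 Sox9 mutant held the lowest value of the 6 growth plate libraries, day 7 included, in a tie for Matn1. The summed level of the list in the Sox8 Sox9 mutant was 6.98% of that in its control, and the Sox9 mutant kept 23.6% of its control at day 14 and 13.9% at day 7. The median difference between the 2 controls was −0.06 over the list, with single genes apart in either direction. With the Sox9 day 7 pair in place of day 14 the median difference of effects was −2.01.

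Scrg1 and Lect1 had the largest differences of effects in the list. Scrg1, a small secreted protein of cartilage (chromosome 8, 57455923 to 57477585), had 1.63 in the Sox8 Sox9 mutant and 167 in its control, against 87.4 in the Sox9 mutant and 133 in its control. Only the Sox8 Sox9 mutant was near the lowest listed value, and the difference of effects was −5.40. Lect1, which encodes chondromodulin, a protein that limits vessel growth (chromosome 14, 79637690 to 79662170), had 12.3 in the Sox8 Sox9 mutant and 1549.5 in its control, against 375 in the Sox9 mutant and 1392 in its control. Its effect was −6.87 in the Sox8 Sox9 pair and −1.89 in the Sox9 pair. Snorc, listed as 3110079O15Rik, a membrane proteoglycan of chondrocytes (chromosome 1, 87470271 to 87475482), had 9.20 in the Sox8 Sox9 mutant and 677 in its control, against 126 in the Sox9 mutant and 705 in its control. The Sox9 pair differed little between days, with 118 and 741 in the day 7 mutant and control. Mia1, a small secreted cartilage protein, was at 1 in the Sox8 Sox9 mutant and 63.5 in its control, against 9.48 in the Sox9 mutant and 57.7 in its control. Ucma, a secreted cartilage protein that binds mineral, had 1.13 and 274 in the Sox8 Sox9 mutant and control and 22.8 and 388 in the Sox9 mutant and control.

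The collagens of the list differed among themselves. Col2a1, the main collagen of cartilage fibrils, had 680.2 in the Sox8 Sox9 mutant and 16033 in its control, against 3090.1 in the Sox9 mutant and 13921 in its control. The difference of effects was −2.39, and it was −0.78 against the day 7 pair, whose mutant had 1547. The collagen IX genes, whose products coat those fibrils, were lower by more, with −4.26 for Col9a3, −4.08 for Col9a2 and −3.21 for Col9a1. Col9a3 had 9.66 in the Sox8 Sox9 mutant and 907 in its control, against 245 in the Sox9 mutant and 1093 in its control. Col11a1 and Col11a2, which encode chains of collagen XI, stood apart from this. Col11a1 had 590.0 in the Sox8 Sox9 mutant and 1280.2 in its control, against 546 in the Sox9 mutant and 1729 in its control, a difference of effects of 0.54, and Col11a2 had one of −0.49. Those genes had about as much left in 1 mutant as in the other, and the test of that contrast with the other collagens was not made.

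Proteoglycans and matrix adaptor proteins lay between those values. Hapln1, the link protein that ties aggrecan to hyaluronan, had 14.2 in the Sox8 Sox9 mutant and 801 in its control, against 161 in the Sox9 mutant and 876 in its control. Prelp, a small leucine-rich proteoglycan, had 11.2 and 787 in the Sox8 Sox9 mutant and control and 56.3 and 472 in the Sox9 mutant and control. Both genes kept several times more in the Sox9 mutant. Matn3, which encodes matrilin-3, had 1.52 in the Sox8 Sox9 mutant and 555 in its control, against 40.9 in the Sox9 mutant and 581 in its control, and its Sox8 Sox9 effect of −7.79 was the furthest below 0 in the list. Matn1, which encodes matrilin-1, was at or near the lowest listed value in both mutants, at 1 and 1.61. Comp, an adaptor protein of the matrix, kept more in both, with 188 in the Sox8 Sox9 mutant and 1698 in its control, against 854 in the Sox9 mutant and 1791 in its control. The exceptions besides Col11a1 were Cytl1, a secreted cytokine-like protein, with a difference of effects of 0.91, and Chad, which encodes chondroadherin, with −0.34. Against the day 7 pair they were −2.29 for Cytl1 and −3.44 for Chad. Of the genes not yet named, Col27a1, Chadl, Pcolce2 and Fmod were past the limit at −3.35, −3.20, −2.44 and −2.17, and Papss2 and Susd5 were not, at −1.72 and −1.37. Matn4 had a mean below 5.

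**Figure D4:**
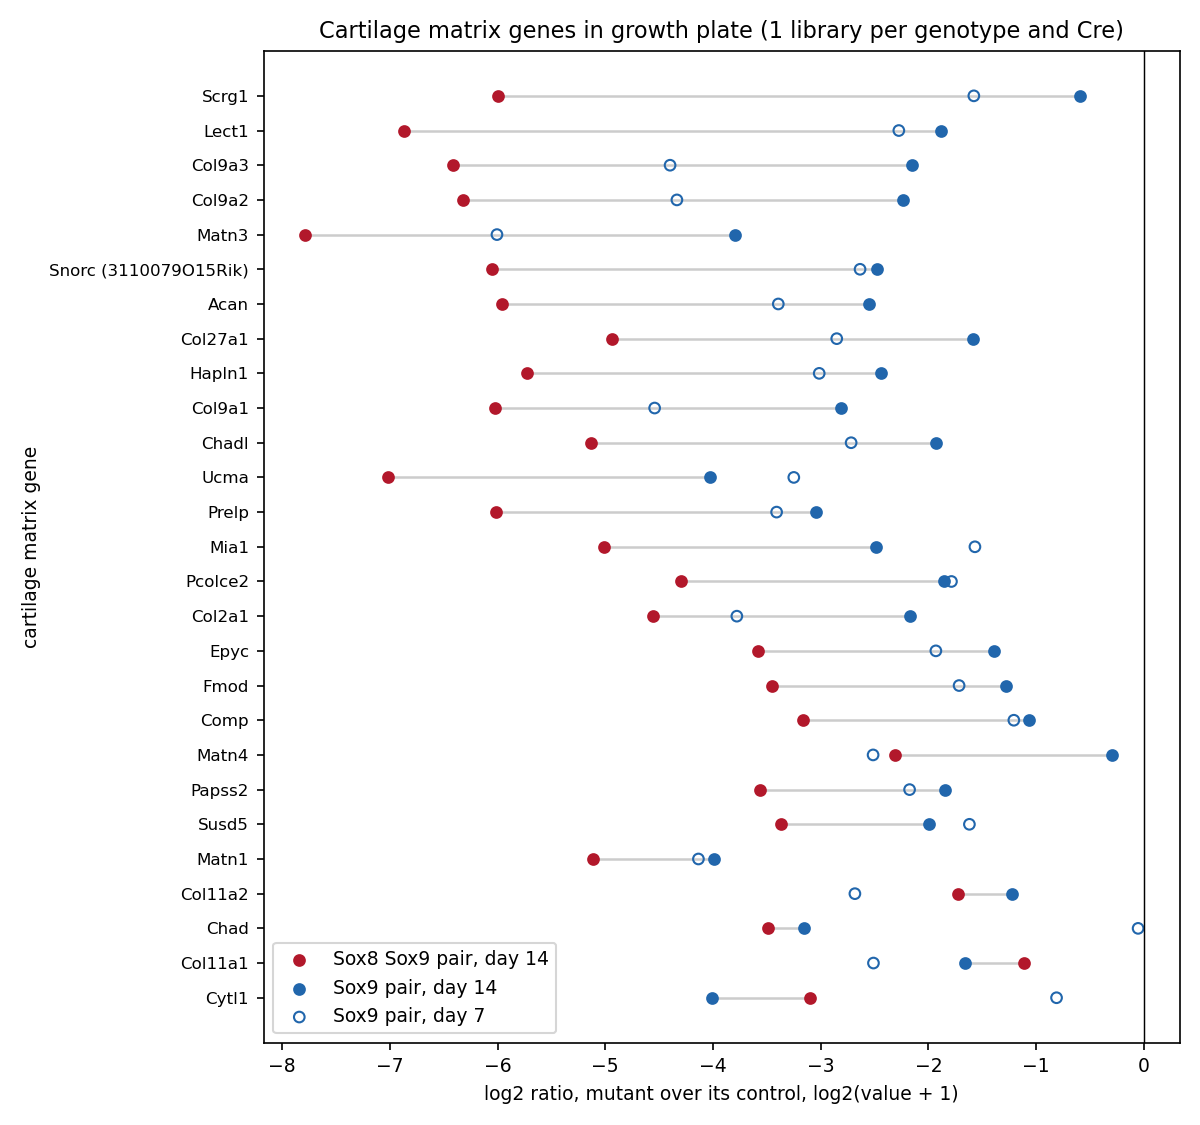
Effect (log2 ratio of mutant over its control) of each of 27 cartilage matrix genes in growth plate, for the Sox8 Sox9 pair (red) and the Sox9 pair (blue) at day 14, and the Sox9 pair at day 7 (open circles), ordered by the difference of the day 14 effects. The red point lies left of the filled blue point in 25 genes, with Col11a1 and Cytl1 at the bottom as the exceptions.

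Because 25 matrix genes had a difference of the same sign, the promoters of the list were searched for ACAAT, a core found in many SOX binding motifs, on both strands. RefSeq promoters (GRCm38.p6, 250 bases before to 50 after the start) were at hand for 22 of the 27 genes. The motif was in 4 of the 22 (18.2%), and in 31% of all 32851 promoters of that length. The promoters of Hapln1 and Epyc are shown because they were among the 4 with a match. Capitals mark the motif, or ATTGT where it lies on the other strand.
Hapln1, chr13:89540386-89540685, plus strand: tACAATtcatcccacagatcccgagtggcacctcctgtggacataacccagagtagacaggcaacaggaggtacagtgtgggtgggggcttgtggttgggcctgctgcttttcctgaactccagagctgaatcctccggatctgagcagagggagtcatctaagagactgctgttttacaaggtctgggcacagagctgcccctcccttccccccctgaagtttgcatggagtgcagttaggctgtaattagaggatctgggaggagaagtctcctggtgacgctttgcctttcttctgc
Epyc, chr10:97643818-97644117, plus strand: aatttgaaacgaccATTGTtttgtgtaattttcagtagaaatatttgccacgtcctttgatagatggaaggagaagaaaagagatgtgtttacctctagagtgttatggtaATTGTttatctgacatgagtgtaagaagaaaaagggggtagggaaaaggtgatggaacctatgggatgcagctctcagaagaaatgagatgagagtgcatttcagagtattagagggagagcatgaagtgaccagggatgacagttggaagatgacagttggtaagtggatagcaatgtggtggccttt
Epyc, a small leucine-rich proteoglycan of the growth plate, had 6.26 in the Sox8 Sox9 mutant and 85.98 in its control, against 32.1 in the Sox9 mutant and 85.8 in its control. A match is a description of the letters in the window and not a binding site, and the windows without a match say nothing about binding elsewhere.

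Markers of other cells stood at different levels beside the matrix genes in growth plate, and their part in the matrix result was not tested. The 13 neutrophil genes summed to 1473 in the Sox8 Sox9 mutant and 61.9 in its control, against 392 in the Sox9 mutant and 40.6 in its control. The 11 osteoclast genes summed to 3636 in the Sox8 Sox9 mutant and 1387 in its control, against 1415 in the Sox9 mutant and 1504 in its control. The 23 osteoblast and osteocyte genes summed to 27873 in the Sox8 Sox9 mutant and 13259 in its control, against 29149 in the Sox9 mutant and 16149 in its control. The bone sums are carried by a few very high genes, and the median bone gene was 0.97 higher on the log2 scale in the Sox8 Sox9 mutant than in the Sox9 mutant. Neutrophil and osteoclast sums were highest in the Sox8 Sox9 mutant of the 4 libraries. Of the neutrophil genes, 6 were at 1 in each growth plate control and 0 in either mutant. Of 16 skeletal muscle genes, 0 were at 1 in either mutant and 12 in the Sox9 control, and the list summed to 109.7 in the Sox8 Sox9 mutant and 492 in its control, against 488 in the Sox9 mutant and 102.9 in its control.

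Transcription factors of chondrocytes were lower in part. Of 14, 10 had a negative difference of effects in growth plate, with a median of −0.61, which was −1.39 against the day 7 pair, and 0 were lower and 1 higher past the limit. The shares of all genes counted were 2.61% lower and 0.639% higher. Sox5, a partner of Sox9, had 1.45 in the Sox8 Sox9 mutant and 14.2 in its control, against 6.66 in the Sox9 mutant and 11.7 in its control. Only the Sox8 Sox9 mutant was far below its control, and the difference of effects was −1.90, and −2.04 against the day 7 pair. Runx3, a factor of chondrocyte maturation, had 10.2 in the Sox8 Sox9 mutant and 54.5 in its control, against 38.8 in the Sox9 mutant and 65.97 in its control. Foxa2, a factor of hypertrophic differentiation, was at 1 in the Sox8 Sox9 mutant and 1.64 in the Sox9 mutant, against 26.4 and 20.5 in their controls, so both were already near the lowest value. Nkx3-2, a repressor that keeps chondrocytes immature, had 1.63 in the Sox8 Sox9 mutant and 26.8 in its control, against 4.03 in the Sox9 mutant and 21.9 in its control. Sox6, the other partner of Sox9, went the other way, with 94.5 in the Sox8 Sox9 mutant and 26.8 in its control, against 7.71 in the Sox9 mutant and 11.5 in its control. The Sox9 mutant at day 7 also had a high value, 100.1, so the difference of effects of 2.30 at day 14 was 0.67 against the day 7 pair.

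Genes of maturing chondrocytes had median effects of −2.41 in the Sox8 Sox9 pair and −2.10 in the Sox9 pair, and few differed between the pairs. Of 12 prehypertrophic and hypertrophic genes, 8 had a negative difference of effects in growth plate, with a median of −0.12 and 1 lower past the limit. Among all genes counted 2.61% were lower past it. Col10a1, the collagen of hypertrophic chondrocytes, had 15.4 in the Sox8 Sox9 mutant and 2774 in its control, against 71.7 in the Sox9 mutant and 5111 in its control. Both effects were large, −7.40 and −6.14, and their difference was −1.26. Cdkn1c, a cell cycle inhibitor of maturing chondrocytes, had 9.69 in the Sox8 Sox9 mutant and 10.1 in the Sox9 mutant, against 159 and 106 in their controls. Ihh, the hedgehog signal of prehypertrophic cells, was the gene past the limit, with 2.40 in the Sox8 Sox9 mutant and 111 in its control, against 11.8 in the Sox9 mutant and 86.1 in its control. Mmp13, a collagenase of the lower hypertrophic zone and of bone cells, had 632 in the Sox8 Sox9 mutant and 253 in its control, against 471 in the Sox9 mutant and 492 in its control, a difference of effects of 1.38 that was −0.17 against the day 7 pair.

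Hedgehog and other growth plate signalling genes followed the order of Ihh in part. Of 15, 8 had a negative difference of effects, and of the 13 with a mean of at least 5, 1 was lower past the limit, with a median of −0.35. Among all genes counted 2.61% were lower past it. Hhip, a hedgehog-binding protein and target of the pathway, had 1.12 in the Sox8 Sox9 mutant and 52.96 in its control, against 3.86 in the Sox9 mutant and 33.6 in its control. Gli1, its target transcription factor, had 3.44 in the Sox8 Sox9 mutant and 10.9 in its control, against 10.9 in the Sox9 mutant and 8.05 in its control, so it stayed above its control in the Sox9 pair only. Ptch1, the hedgehog receptor, had 21.7 in the Sox8 Sox9 mutant and 114 in its control, against 23.7 in the Sox9 mutant and 129 in its control, with a difference of effects of 0.05. The difference of effects thus varied among hedgehog targets. Prkg2, the kinase downstream of C-type natriuretic peptide, was the gene past the limit, with 4.41 in the Sox8 Sox9 mutant and 101 in its control, against 29.3 in the Sox9 mutant and 91.9 in its control. Fgfr3, the receptor that restrains growth plate proliferation, had 10.6 in the Sox8 Sox9 mutant and 64.8 in its control, against 27.8 in the Sox9 mutant and 56.3 in its control, a difference of effects of −1.51.

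Enzymes that build the sugar chains of proteoglycans showed no common shift, with 1 of 14 past the limit and a median of 0.07 over all 16 in growth plate. Of all genes counted, 2.61% were lower and 0.639% higher past the limit. Xylt1, the xylosyltransferase that starts those chains, had 7.78 in the Sox8 Sox9 mutant and 149.7 in its control, against 68.7 in the Sox9 mutant and 132 in its control. The difference of effects was −3.16, and −2.83 against the day 7 pair. Chst11, a chondroitin sulfotransferase, had 45.5 in the Sox8 Sox9 mutant and 297 in its control, against 109 in the Sox9 mutant and 274 in its control, and its difference was −1.35. Xylt2, the other xylosyltransferase, had 0.58.

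Articular and superficial zone genes in growth plate held both directions, with 1 of 15 higher and 2 lower past the limit and a median of 0.04 over all 16. For all genes counted the shares were 0.639% higher and 2.61% lower. Prg4, lubricin, had 111 in the Sox8 Sox9 mutant and 11.95 in its control, against 7.96 in the Sox9 mutant and 36.4 in its control. The Sox8 Sox9 mutant stood above the other growth plate libraries, and part of the difference of effects of 5.17 came from the Sox9 control being above the Sox9 mutant. Against day 7, where the Sox9 mutant and control had 6.06 and 3.61, it was 2.49. Cilp, an intermediate layer protein of cartilage, went the other way, with 2.86 in the Sox8 Sox9 mutant and 8.88 in its control, against 66.8 in the Sox9 mutant and 18.7 in its control, and its day 7 mutant was also high at 143. Cilp2 was at 1 in the Sox8 Sox9 mutant and 14.9 in its control, against 8.14 in the Sox9 mutant and 9.03 in its control. Wnt and BMP genes had a median of −0.11, with 0 of 16 higher and 1 lower past the limit, Sfrp2, a secreted Wnt modulator, at −3.96, which rested on a value of 30.2 in the Sox9 mutant alone.

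Beside matrix genes, the 10 largest named growth plate differences below 0 included muscle genes and Fxyd2, which encodes a regulatory subunit of the sodium pump. Fxyd2 (chromosome 9, 45399669 to 45410278) had 2.76 in the Sox8 Sox9 mutant and 506 in its control, against 126 in the Sox9 mutant and 382 in its control. The Sox8 Sox9 mutant was far below all other growth plate libraries, the day 7 mutant included at 79.2. C1qtnf3, a secreted protein of cartilage, had 1 in the Sox8 Sox9 mutant and 54.5 in its control, against 15.7 in the Sox9 mutant and 24.6 in its control, but its day 7 Sox9 mutant had 4.30, and against that pair the difference of effects was −0.36. H19, an imprinted noncoding RNA, had 7.13 in the Sox8 Sox9 mutant and 118 in its control, against 44.5 in the Sox9 mutant and 29.6 in its control. Myh4, a fast myosin of skeletal muscle, had 3.11 in the Sox8 Sox9 mutant and 91.1 in its control, against 39.3 in the Sox9 mutant and 1 in its control. In its difference of effects of −8.82, the mutants differed by −3.29 and the controls by 5.52 on the log2 scale, Sox8 Sox9 minus Sox9 in each case. All 16 muscle genes had a negative difference, with a median of −4.72 at day 14 and −1.94 against the day 7 pair, and the 13 with a mean of at least 5 were all lower past the limit. The share of all genes counted was 2.61%. Acta1, skeletal actin, and Tnnt3, a troponin, were named beside Myh4 at −6.46 and −4.82.

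On the higher side in growth plate, the largest named differences were Prg4, Fos, Steap4, Metrnl, Sox6, Phex, Txnip, Egr1, Tceb2 and Ifi30. Several of them rested on the Sox9 pair. Fos, an immediate early gene, had 14.7 in the Sox8 Sox9 mutant and 13.1 in its control, against 3.71 in the Sox9 mutant and 73.2 in its control, so of the day 14 libraries the Sox9 control was the high one. Egr1, also an immediate early gene, had 19.7 in the Sox8 Sox9 mutant and 22.5 in its control, against 9.93 in the Sox9 mutant and 53.97 in its control. Steap4, a metalloreductase, had 75.3 in the Sox8 Sox9 mutant and 24.4 in its control, against 19.2 in the Sox9 mutant and 56.6 in its control, and its Sox9 effect was −1.51. Phex, a peptidase of osteocytes that controls phosphate, had 199.5 in the Sox8 Sox9 mutant and 40.1 in its control, against 36.3 in the Sox9 mutant and 36.6 in its control. The day 7 Sox9 mutant and control had 49.4 and 7.91, and against that pair the difference was −0.21. Metrnl, a secreted protein, had 66.5 in the Sox8 Sox9 mutant and 10.7 in its control, against 20.4 in the Sox9 mutant and 17.4 in its control, and Txnip, a thioredoxin inhibitor, had 112 in the Sox8 Sox9 mutant and 57.3 in its control, against 40.9 in the Sox9 mutant and 96.9 in its control. Ifi30, a lysosomal reductase of antigen-presenting cells, had 159.8 in the Sox8 Sox9 mutant and 53.2 in its control, against 27.1 in the Sox9 mutant and 40.1 in its control, and Tceb2, an elongin subunit, had 67.2 in the Sox8 Sox9 mutant and 44.3 in its control, against 11.5 in the Sox9 mutant and 35.6 in its control. Against the day 7 pair the differences of effects were 0.23 for Steap4, 0.29 for Metrnl, 0.24 for Txnip, −0.54 for Egr1, 0.93 for Ifi30 and 1.02 for Tceb2, so all 6 were short of the limit there.

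Several lists lay above the median of all growth plate genes with few or no members past the limit. Nuclear-encoded respiratory chain subunits had a positive difference of effects in 19 of 20 genes and none past the limit, with a median of 1.08, or 0.80 after median ratio scaling. Over all genes counted the median was 0.30 and 0.639% were higher past the limit. Ribosomal protein genes were above 0 in 18 of 20, but their median of 0.41 was near that of all genes counted. The share of all genes above 0 was not taken. Cox7a2, a subunit of cytochrome oxidase, had 24.2 in the Sox8 Sox9 mutant and 12.4 in its control, against 7.13 in the Sox9 mutant and 13.3 in its control. It was higher than its control only in the Sox8 Sox9 pair. The 11 osteoclast genes all had a positive difference, with a median of 1.26, which was 0.15 against the day 7 pair. Ctsk, the collagen-degrading protease of osteoclasts, had 1100.2 in the Sox8 Sox9 mutant and 219 in its control, against 521 in the Sox9 mutant and 303 in its control, and Mmp9, a gelatinase, had 800.1 in the Sox8 Sox9 mutant and 463 in its control, against 332 in the Sox9 mutant and 654 in its control. The osteoblast and osteocyte list had a median of 0.90 at day 14 and −0.06 against the day 7 pair, with Phex past the limit, and Bglap2, an osteocalcin gene, at −1.69. The macrophage list had a median of 1.05, and 0.45 against the day 7 pair. The neutrophil list had a median of 1.16. Of its genes, Lcn2 and Elane, both granule proteins, were past the limit at 3.52 and 2.18. Against the day 7 pair Lcn2 was at 2.21 and Elane at −2.33, past the limit the other way.

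The day 7 and day 14 Sox9 libraries were then pooled as repeats of each cell, the only repeats at hand, and the difference of effects was tested with limma over all 12 libraries. The error therefore holds any change between days, and the Sox8 Sox9 libraries were assumed to vary alike. The labels do not tie captured regions to animals, so libraries may share an animal and the p-values may be too small. In growth plate 0 of 14712 genes passed a Benjamini-Hochberg adjusted p of 0.05 (0%), with 833 at an unadjusted p under 0.05, and the smallest adjusted p was 0.0765. No other tool was run. Of the matrix list 0 of 27 passed, and 19 were lower at an unadjusted p under 0.05, against 3.26% of all genes lower and 2.4% higher. Sox9 had a fitted difference of −2.27 ± 0.46 SE (limma, adjusted p = 0.334), Scrg1 of −4.91 ± 0.60 (adjusted p = 0.0975), Lect1 of −4.78 ± 0.63 (adjusted p = 0.117) and Fxyd2 of −4.82 ± 0.61 (adjusted p = 0.0975).

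Restricted to the 7674 genes with a mean of at least 5, limma called 3 growth plate genes, all lower (0.0391%), each at an adjusted p of 0.0331. Snorc fell by 3.50 ± 0.34 relative to the Sox9 effect. Mfi2, which encodes melanotransferrin, a membrane protein of chondrocytes (chromosome 16, 31878810 to 31899020), had 1.60 in the Sox8 Sox9 mutant and 114 in its control, against 37.6 in the Sox9 mutant and 135 in its control. It fell by 3.64 ± 0.35, and its day 7 mutant and control had 33.7 and 122. The third was AL807777.1, a processed pseudogene on chromosome X, with 1 in the Sox8 Sox9 mutant and 88.3 in its control, against 76.7 in the Sox9 mutant and 134 in its control. It fell by 4.77 ± 0.49. The annotation names it Gm6472. In each of the 3 the Sox8 Sox9 mutant was below all other growth plate libraries.

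In articular cartilage 87 of the 194 genes higher past the limit lay in the chromosome 3 run. Against its own control, the library labelled Sox8 Sox9 mutant had 66 genes higher by at least 2 on the log2 scale (0.86%) and 31 lower (0.404%), and the Sox9 mutant 84 higher (1.09%) and 144 lower (1.88%). Past the limit, 194 genes were higher and 103 lower, which is 2.53% and 1.34% of the genes counted. Without the run 107 genes were higher and 103 lower. The median difference of effects was 0.00. Ppp3ca, a calcineurin subunit, Ddit4l, an mTOR inhibitor, Cyr61, a matricellular protein, and Col11a1 were among the 10 largest named higher differences and all lie in the run, at 1 in the Sox9 mutant. Col11a1 had 54.7 in the library labelled Sox8 Sox9 mutant and 96.5 in its control, against 1 in the Sox9 mutant and 133 in its control. Against the day 7 pair 26 genes were higher (0.339%) and 109 lower (1.42%), 13 and 45 of them among those counted at day 14. For 75 of the 103 lower genes the 2 controls were further apart than the 2 mutants.

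Cartilage matrix genes did not show in articular cartilage the pattern that they had in growth plate. Their median effect was −0.81 in the labelled Sox8 Sox9 pair and −0.96 in the Sox9 pair, and the median difference of effects was 0.20, with 1 of 26 higher past the limit, Col11a1, and 1 lower. Among all genes counted in articular cartilage 2.53% were higher and 1.34% lower. The difference between the tissues was not tested. Sox9 itself had effects of 0.40 in the labelled Sox8 Sox9 pair and −0.17 in the Sox9 pair. In growth plate they were −3.06 and −1.17, so the tissues also differed in the Sox9 left. The library labelled Sox8 Sox9 mutant kept 61.1% of the summed level of its control, and the Sox9 mutant 38.7%. Ucma had 20.7 in the library labelled Sox8 Sox9 mutant and 181 in its control, against 25.6 in the Sox9 mutant and 248 in its control. Snorc had 49.2 in the library labelled Sox8 Sox9 mutant and 263 in its control, against 28.4 in the Sox9 mutant and 333 in its control, and Col2a1 had 279.7 in the library labelled Sox8 Sox9 mutant and 451 in its control, against 169 in the Sox9 mutant and 313 in its control. Both mutants were below their controls in these genes, and the effects were of like size in the pairs for Ucma, at −3.07 and −3.22. Fmod, fibromodulin, was the gene lower past the limit. It had 225 in the library labelled Sox8 Sox9 mutant and 179 in its control, against 105 in the Sox9 mutant and 19.05 in its control, so the Sox9 control was the low library, and the difference against day 7 was 0.36. Prg4 had 20422 in the library labelled Sox8 Sox9 mutant and 32446 in its control, against 9137 in the Sox9 mutant and 24884 in its control, a difference of 0.78.

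Other chondrocyte genes in articular cartilage showed few differences. Past the limit were 2.53% of all genes counted on the higher side and 1.34% on the lower side. Transcription factors had a median of 0.07, with Sox8 the 1 gene of 14 past the limit. Sox6 had 91.6 in the library labelled Sox8 Sox9 mutant and 28.8 in its control, against 16.5 in the Sox9 mutant and 13.2 in its control, highest in the library labelled Sox8 Sox9 mutant as in growth plate. Col10a1 had 177 in the library labelled Sox8 Sox9 mutant and 1284 in its control, against 269 in the Sox9 mutant and 3045 in its control, and its effects of −2.86 and −3.50 were both far below 0. Mmp13 was the 1 of 12 hypertrophic genes past the limit, at −2.20, with 25.1 in the library labelled Sox8 Sox9 mutant and 175 in its control, against 25.4 in the Sox9 mutant and 37.9 in its control, and the Sox8 Sox9 control was the high library. Growth plate signalling genes had a median of 0.23, and Fgfr3 had 6.65 in the library labelled Sox8 Sox9 mutant and 16.2 in its control, against 9.32 in the Sox9 mutant and 46.5 in its control. Sfrp2 had 1 in the library labelled Sox8 Sox9 mutant and 25.6 in its control, against 5.05 in the Sox9 mutant and 1 in its control, and Grem1, a BMP antagonist, had 6.10 in the library labelled Sox8 Sox9 mutant and 86.7 in its control, against 7.35 in the Sox9 mutant and 30.6 in its control. Both were highest in the Sox8 Sox9 control. Glycosaminoglycan synthesis had a median of −0.11 and respiratory chain genes one of −0.08, each with 1 gene past the limit, Papss1 and Atp5f1, both in the run.

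Of the 10 largest named higher differences in articular cartilage, those outside the run were blood cell and immunoglobulin genes and a histone gene. Of the 11 neutrophil genes of mean at least 5, 9 were higher past the limit, against 2.53% of all genes counted. The median of all 13 was 3.79. The list's sum was 1112 in the labelled Sox8 Sox9 mutant and 338 in its control, against 265 in the Sox9 mutant and 1189 in its control. The Sox9 pair was thus opposite to the Sox8 Sox9 pair, and against the day 7 pair the median was −0.38. Ngp, a neutrophil granule protein, had 259.7 in the library labelled Sox8 Sox9 mutant and 73.8 in its control, against 21.5 in the Sox9 mutant and 299 in its control, and Mpo, myeloperoxidase, had 75.7 in the library labelled Sox8 Sox9 mutant and 5.99 in its control, against 37.9 in the Sox9 mutant and 119.8 in its control. Erythroid genes had a median of 3.51, with 6 of the 7 of mean at least 5 past the limit, against 2.53% of all genes counted. Against the day 7 pair the median was 0.69. The list had sums of 1169.7 in the library labelled Sox8 Sox9 mutant and 169 in its control, against 256 in the Sox9 mutant and 623 in its control. Hbb-y, an embryonic globin whose reads may overlap those of other globin copies, had 121 in the library labelled Sox8 Sox9 mutant and 1 in its control, against 1 in the Sox9 mutant and 1 in its control, and its difference was −1.12 against the day 7 pair. B cell genes had a median of 2.95, which was 1.2 against the day 7 pair. Igkc, the immunoglobulin kappa constant region, had 558 in the library labelled Sox8 Sox9 mutant and 70.4 in its control, against 42.98 in the Sox9 mutant and 146 in its control, and its difference of 4.71 was 0.09 against that pair. Cell cycle genes were positive in 16 of 16 with a median of 1.54, which was 0.15 against the day 7 pair. Mki67, a marker of dividing cells, had 41.1 in the library labelled Sox8 Sox9 mutant and 7.96 in its control, against 10.00 in the Sox9 mutant and 19.8 in its control, and its difference of 3.15 was −1.11 against the day 7 pair. Hist1h2af, a replication histone gene with near-identical copies, had 61.4 in the library labelled Sox8 Sox9 mutant and 8.70 in its control, against 16.5 in the Sox9 mutant and 72.4 in its control.

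Connective tissue genes were on the lower side in articular cartilage. For Dpt and Col3a1 the Sox9 control at day 14 was the lowest articular library, day 7 included. Of 16 fibroblast and tendon genes 15 had a negative difference, with a median of −1.71. Of the 15 with a mean of at least 5, 6 were lower past the limit, against 1.34% of all genes counted. The median difference over all genes counted was 0.00, and the share of them below 0 was not taken. Dpt, dermatopontin, had 40.2 in the library labelled Sox8 Sox9 mutant and 39.05 in its control, against 171 in the Sox9 mutant and 6.67 in its control. Col3a1, the fibrillar collagen of soft tissue, had 636 in the library labelled Sox8 Sox9 mutant and 559 in its control, against 1219 in the Sox9 mutant and 91.8 in its control. The Sox8 Sox9 pair was close to equal in both genes, and the Sox9 mutant was far above its control. Col14a1, a fibril-associated collagen, Aebp1, a collagen-binding protein, Fgl2, a fibrinogen-like protein, Clic5, a chloride channel protein, Sparcl1, a matricellular protein, and Ly6a, a surface antigen, lay between −4.62 and −3.16. Macrophage genes had a median of −1.43, and C1qa, a complement subunit, had 25.7 in the library labelled Sox8 Sox9 mutant and 40.2 in its control, against 63.4 in the Sox9 mutant and 11.5 in its control. Endothelial genes were negative in 13 of 13 with a median of −0.90. Skeletal muscle genes had a median of −1.94, with Myh4 at −3.15, and sums of 113 in the library labelled Sox8 Sox9 mutant and 719 in its control, against 587 in the Sox9 mutant and 776 in its control. Against the day 7 pair the medians stayed below 0. They were −1.49 for the fibroblast and tendon list, −2.46 for macrophages, −1.31 for endothelial cells and −2.93 for skeletal muscle. The share of these cells in each capture was not measured.

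**Figure D5:**
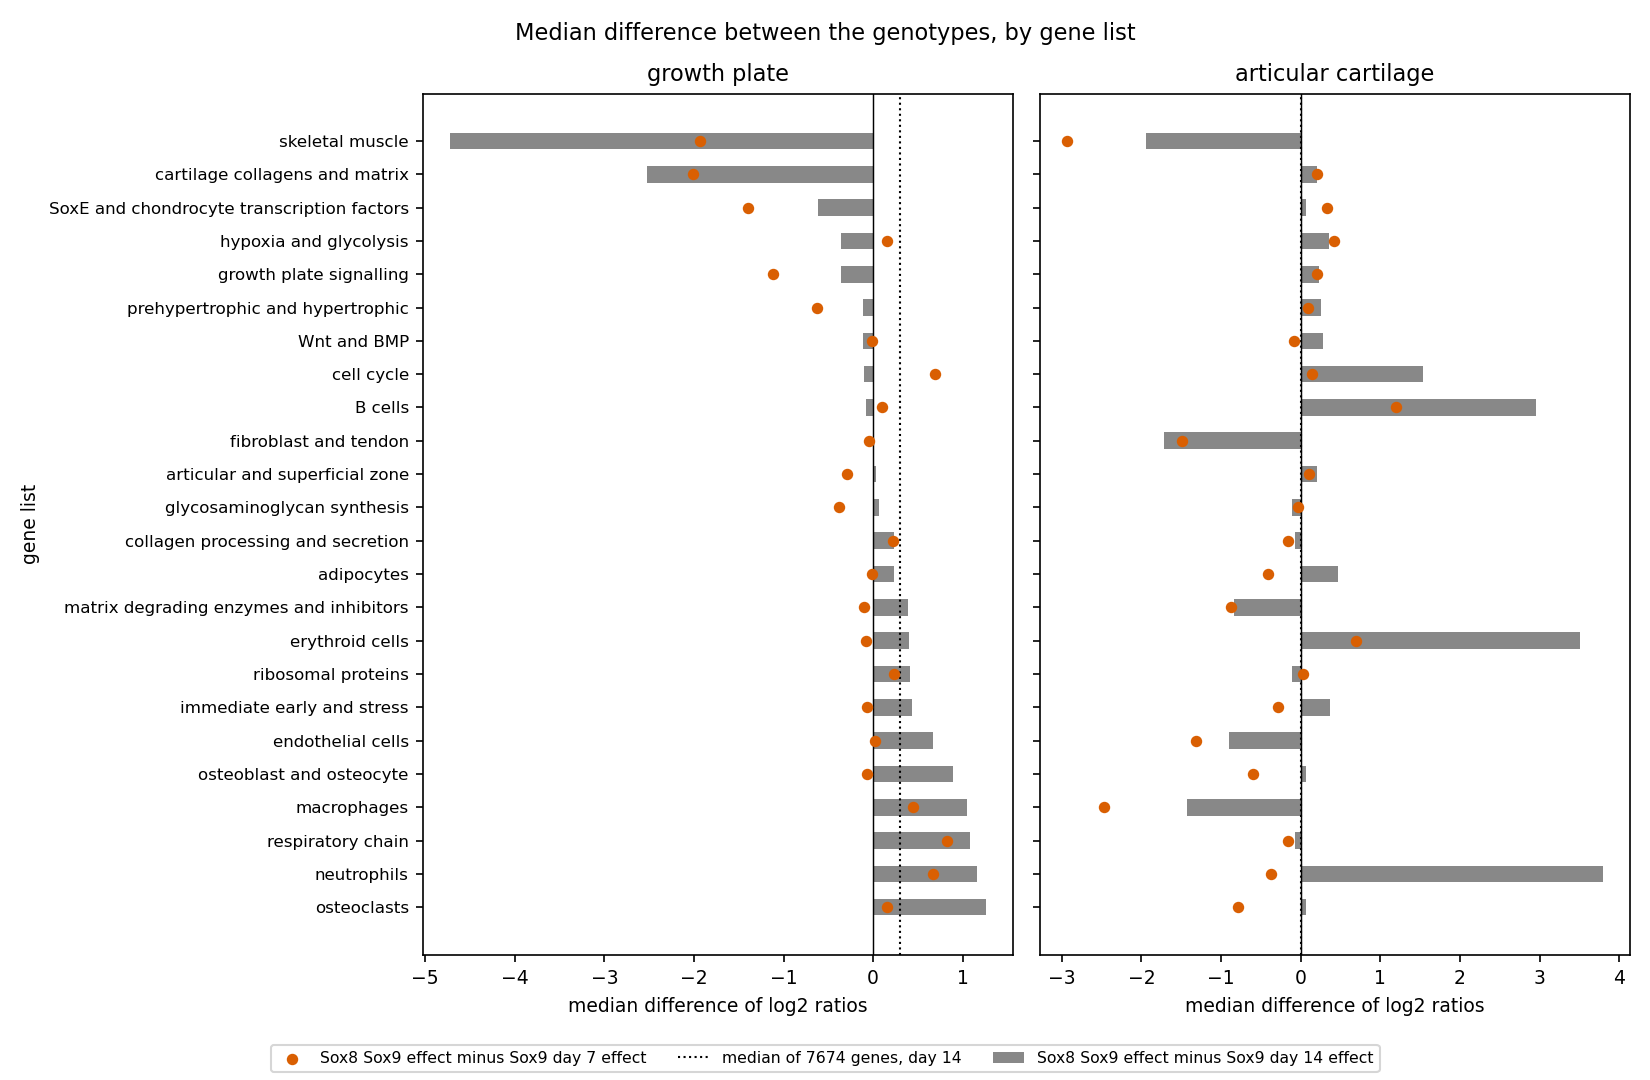
Median difference of effects of each gene list (Sox8 Sox9 effect minus Sox9 effect, log2 units) in growth plate (left) and articular cartilage (right); bars use the Sox9 day 14 pair and points the Sox9 day 7 pair, and the dotted line is the median of 7674 genes. The cartilage matrix list lies at −2.53 and −2.01 in growth plate, and the articular neutrophil list at 3.79 with the day 14 pair and −0.38 with the day 7 pair.

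With the Sox9 days pooled, limma called 7 of 14712 articular genes (0.0476%), all higher and 0 lower (0%), at a Benjamini-Hochberg adjusted p under 0.05, and 621 had an unadjusted p under 0.05. All 7 are immunoglobulin genes. AC140385.1, annotated as Igkv14-126, had 127 in the library labelled Sox8 Sox9 mutant and 1 in the other 5, with a fitted difference of 6.005 ± 0.39 SE (limma, adjusted p = 0.00918). Iglc2, a lambda constant region, had 85.1 in the library labelled Sox8 Sox9 mutant and 1 in its control, against 1 in the Sox9 mutant and 1.63 in its control, with a fitted difference of 5.63 ± 0.43 (limma, adjusted p = 0.0146). These fitted sizes depend on the pseudocount, because the other articular libraries lie at or near the lowest listed value. Their residual spread comes from such values, and the Sox8 Sox9 arm is 1 library. Genes with near-identical copies such as these are uncertain. With a mean of at least 5 limma called 0 articular genes (226 unadjusted), and with a pseudocount of 0.1 or from the 6 articular libraries alone it also called 0. Leaving out the articular Sox9 mutant of day 7 gave 14 calls, and leaving out any other of the 8 Sox9 libraries, of either tissue, gave 0. The same limit on shared animals holds.

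Some genes were past the limit in both tissues. On the lower side 18 were, which is 17.5% of the 103 articular genes, beside 2.61% of all genes lower in growth plate, and 9% of the 200 growth plate genes, beside 1.34% of all genes lower in articular cartilage. They included 8 skeletal muscle genes, Fmod and Sfrp2. Overlaps of these sizes have no test here. On the higher side 10 were, which is 5.15% of the 194 articular genes, beside 0.639% of all genes higher in growth plate, and 20.4% of the 49 growth plate genes, beside 2.53% of all genes higher in articular cartilage. Among them were the neutrophil genes Elane and Lcn2, the embryonic globins Hbb-y and Hba-x, and Ly6c2, a surface antigen of myeloid cells. The immunoglobulin gene AC073563.4 was also among them.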

How the data were processed

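Bulk RNA from laser-captured articular cartilage and growth plate was sequenced after a stranded total RNA preparation for small inputs, per the labels' protocols. The deposited values are normalised RPKM (NRPKM) per the file headers, and the submitters' processing notes name mm10. The sources used here do not give an aligner, a counter, an annotation or the further normalisation. The lowest of the deposited RPKM values is 1, so read depth is unknown and no counting interval can be given. Coordinates were added from GENCODE M21 for 14293 of 14712 genes by gene ID.

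Effects were computed on log2(value + 1), with 7674 genes of mean at least 5 over the 12 libraries counted. The tests used limma 3.58.1 and statmod 1.5.0 in R 4.3.3, with a robust empirical Bayes fit and mean trend on all 12 libraries in 8 cells of genotype, Cre and tissue. Benjamini-Hochberg adjustment ran over all 14712 genes. Other steps used Python 3.11.15 with numpy 2.4.6, pandas 2.3.3 and matplotlib 3.10.9. Labels give no separate animals for libraries, so p-values measure the spread between these libraries. Pseudocounts of 0.1 and 10, other scalings and filters, the Sox9 day 7 pair, a day covariate and libraries left out were tried.

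Named were the targets, per tissue and direction the 10 largest differences among genes of mean at least 20 over the tissue's 4 libraries with an established symbol, up to 5 genes called by limma, and up to 4 members per list. Other list members and the genes called at a mean of at least 5 were chosen after their values were seen. The comparison and the gene lists were chosen with earlier results of these data known. Promoters came from RefSeq on GRCm38.p6.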

Additional observations from a re-analysis of the deposited data

Results flagged for a closer look

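For 5 immunoglobulin genes in articular cartilage, limma with the Sox9 days pooled called a difference between the Sox8 Sox9 effect and the Sox9 effect. The fitted log2 differences were 6.005 for AC140385.1, 5.63 for Iglc2, 4.71 for AC073563.4, 4.54 for AC073563.3 and 4.26 for Iglv2. Adjusted p was 0.00918 for AC140385.1, 0.0146 for Iglc2, 0.0164 for AC073563.4, 0.0192 for AC073563.3 and 0.0247 for Iglv2. The annotation names AC073563.4 as Ighv9-3 and AC073563.3 as Ighv11-2, both heavy chain variable segments. In the library labelled Sox8 Sox9 mutant the values were 51.2 for AC073563.4, 45.5 for AC073563.3 and 37.3 for Iglv2, and all 3 were at 1 in the other 5 articular libraries. Each difference thus rests on 1 library, and the spread that it was tested against comes from values at or near the lowest listed one. At day 14 AC073563.4 was also higher past the limit in growth plate. Of the 7 articular calls, 0 remained in 7 of the 8 fits without 1 Sox9 library, at a mean of at least 5, at a pseudocount of 0.1 and from the 6 articular libraries alone, and 1 with a day covariate. In that library the 8 B cell genes summed to 711, against 94.6 in its control, 74.5 in the Sox9 mutant and 196 in its control. The part of B lineage cells in the difference was not tested.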

How the results depend on the processing

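Numbers of genes past the limit at day 14 moved with the settings. For articular cartilage the 297 genes became 91 with a pseudocount of 10, 507 with no filter, 97 with a mean of at least 20, 135 with the Sox9 day 7 pair and 151 with the mean of both days. For growth plate the 249 became 70.0, 437, 116 and, with the mean of both days, 160.0. For the pooled articular test the 7 calls became 0 with a pseudocount of 0.1, 19 with 10, 0 with a mean of at least 5, 1 with a day covariate, 0 from the 6 articular libraries alone, and 0 to 14 with 1 library left out. For growth plate the 0 calls became 3, 2 and 3 under the first 3 of these, and 0 to 2 with 1 library left out, 2 without the growth plate Sox9 mutant of day 7. The causes were not tested. With the Sox9 day 7 pair in place, a turn of sign was counted only where the day 14 difference was at least 2 either way. Of such list medians, that of the articular neutrophil list turned (−0.38). Of such genes named as the largest or as targets, Hbb-y (−1.12), Ngp (−0.88), Col11a1 (−0.46), Mpo (−0.62) and Hist1h2af (−1.31) turned in articular cartilage, and Phex (−0.21) and Egr1 (−0.54) in growth plate. Smaller list medians also changed sign, among them the growth plate osteoblast and osteocyte list (0.90 to −0.06) and the articular adipocyte list (0.47 to −0.41). Of 276 values for 46 named genes under 6 alternatives, 213 stayed within the spread between days, 56 moved further and 7 turned. That spread was itself taken from the day 7 and day 14 Sox9 effects. The day 7 pair therefore always went past it (39 moved, 7 turned), and the mean of both days never did (46 stayed). Those outcomes were fixed in advance and say nothing about how stable the values are. No paired analysis was possible because the labels number no replicates and each genotype, day and tissue has 1 library. Read depth is unknown, and all error comes from the Sox9 libraries.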
